A study of Homo sapiens with 10 samples.

Results

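The samples described here are the 5 arrays of vehicle-treated NCI-H441 cells, out of 10 arrays in the series, chosen by their titles as the control replicates 1 to 5. NCI-H441 is an established human lung adenocarcinoma line. It was grown in McCoy's 5A medium with fetal bovine serum, and the cells received 0.1% DMSO, the solvent of the study's test compound, for 12 h before total RNA was taken. The other 5 arrays, from cells given 1 µM of that compound in the same amount of DMSO, were not compared here. A characteristic of these samples reads untreated, while the protocol names DMSO, so the solvent is part of the baseline. The number of cultures is not settled, since the labels speak in different places of 5 replicates, 4 wells and 3 biological replicates per group, and nothing states that each array is a separate culture. The SDs below therefore measure only the spread between these arrays, which may be technical. The line is a single tumour's cells in culture, with no stroma, blood vessels or leukocytes of a host.

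Lung adenocarcinoma often keeps features of the terminal respiratory unit, the alveolar type II and club cells of the distal lung. In that unit the homeodomain factor NKX2-1 and the forkhead factors FOXA1 and FOXA2 drive surfactant genes, while EPCAM and the simple-epithelium keratins mark its epithelial state. Active RAS signals through RAF, MEK and ERK kinases, whose output includes cyclin D1 and a set of feedback phosphatases and inhibitors such as DUSP6 and the Sprouty proteins. The factor NRF2 (gene NFE2L2), held down by KEAP1, sets the basal level of many antioxidant enzymes. The arrays were therefore read for 3 things: lineage, the growth factor and RAS pathway, and the basal redox state.

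A level is given as log2 of the signal in table units (10 to the power of the deposited value) plus 3, after quantile normalization over the 5 arrays. A signal of 0 would give a level of 1.58. A gene was called above background on an array where its deposited log10 value exceeded 0.2, or 1.58 table units. A percentile is the share of the 18665 named genes with a lower value on the same array. Each gene is represented by its brightest probe. Probes differ in how well they bind, so a percentile places a probe's signal and not the abundance of its transcript: a higher percentile of a gene does not mean more transcript than another gene has. In bulk RNA, fewer cells that express a gene and less RNA per cell cannot be told apart.

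Of the 18665 genes, 11501 (61.6%) were above background on all 5 arrays and 4019 (21.5%) on none. As a gauge of that limit, 62 measured genes of sense organs, hair, lens, muscle, milk and germ line served as an absence reference. Only 6 of these 62 (9.68%) were above background on all 5 arrays and 37 on none. Without control 3 the count on all 4 remaining arrays was 10, against 6 or 7 without 1 of the other arrays. ZP3, an egg coat gene, was the sole reference gene above the stricter deposited value of 1.0 on every array, as 44.0% of all genes were, at a level of 6.63 ± 0.25 (SD, n = 5). The others that passed averaged 2.45 (TNP1), 2.70 (OR4D1), 2.71 (TAS2R3), 2.88 (OR1D2) and 3.00 (GNAT1). Genes named below that pass at such levels are no brighter than these, so a pass there does not show expression. The limit can also miss genes. RPL10, a ribosomal protein of every cell, was above background on 1 array with the brighter of 2 probes, so a gene below the limit cannot be taken as silent.

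Control 3 stood apart. Its correlations with the other 4 arrays over probes above background were 0.968 to 0.975, with a mean of 0.972. The mean correlation of each other array, its pair with control 3 included, was 0.984 to 0.987. Among the genes above background on all 5 arrays, 604 lay more than 1 log2 unit from the mean of the other arrays on control 3 (278 higher, 326 lower). The same count was 81 on control 5 and 5 to 16 on controls 1, 2 and 4. The median SD of these genes was 0.23 with all 5 arrays and 0.16 without control 3. Without control 3, 11834 genes were above background on all 4 remaining arrays, against 11577 to 11650 without 1 of the other arrays. Leaving out any array can only keep or raise such a count. No 2 control arrays held identical values. No label used here records slide, hybridization or scan, so their part in this spread was not tested.

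All 5 markers that define the label of these cells were above background on every array. NKX2-1, the lung lineage factor, had levels of 8.42, 8.80, 8.20, 8.73 and 9.17 on controls 1 to 5, a mean of 8.66 ± 0.37 (SD, n = 5) and a mean percentile of 93.9. NAPSA, the aspartic protease napsin A that processes surfactant protein B, read 10.06, 10.37, 10.37, 10.48 and 10.51, at the 98.7th percentile. These levels held on each array, with control 3 the lowest for NKX2-1 and control 1 for NAPSA. KRT7, a keratin of simple epithelia, had levels of 10.55, 10.80, 10.76, 10.61 and 10.09. EPCAM, the epithelial adhesion molecule, had 11.55, 11.51, 11.72, 11.33 and 11.41. SFTPB, surfactant protein B, sat in the middle of the signal range, at 4.48, 4.20, 4.75, 4.61 and 3.53 (percentile 58.4). A second SFTPB probe averaged 2.00 and was above background on 1 array, so SFTPB rests on a single probe.

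**Figure D1:**
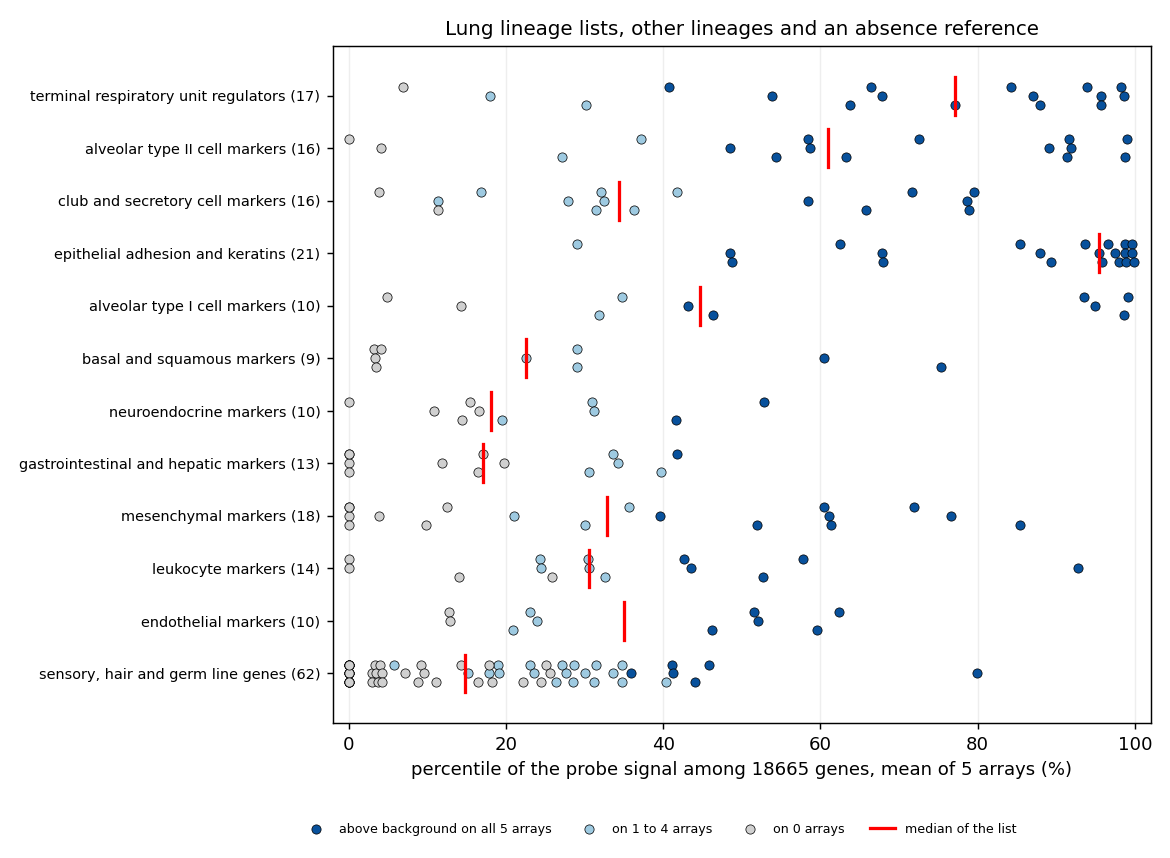
Each point is a gene, placed by the mean percentile of its probe signal among 18665 genes over the 5 vehicle arrays (horizontal axis, %), in rows of gene lists with the number of measured genes in parentheses; colour gives on how many arrays it was above background and red bars are list medians. Epithelial adhesion genes and keratins lie at the right (median 95.5), the absence reference at the left (median 14.7).

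Transcription factors listed as terminal respiratory unit regulators were mostly above background. The list is wider than the distal lung, since it also holds SOX2. Of 17 measured members of the list of terminal respiratory unit regulators, 14 (82.4%, against 61.6% of all genes) were above background on all 5 arrays, with a median percentile of 77.1 against 49.6 over all genes. FOXA1, a pioneer factor of endodermal epithelia, had a mean level of 10.05 ± 0.11 (n = 5) and HOPX, a homeodomain-only cofactor, 10.30 ± 0.19. The ETS factor ELF3 averaged 9.07 ± 0.27 and CEBPD, a C/EBP factor, 9.08 ± 0.31. Other partners of NKX2-1 were near the limit. FOXA2 read 2.29, 1.89, 2.11, 2.32 and 2.40 and was above background on 3 arrays. GATA6, a zinc finger factor of lung endoderm, was above background on 1 array, with 1.74, 1.69, 1.59, 2.23 and 1.99. SOX2, a factor of the proximal airway, was above background throughout (7.16 ± 0.36), with control 3 at 7.79 against 6.96 to 7.08 on the others. SOX9, a factor of the distal tip of the growing lung, averaged 3.83 ± 0.67. SOX17 was above background on 0 arrays.

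The promoter stretches of 3 lineage genes are printed to show where the letters bound by these factors lie. They come from RefSeq on GRCh38.p14. Capitals mark matches on either strand to CAAGTG, the core of NKX2 sites, or to TGTTTAC, a forkhead site, whose reverse is GTAAACA. NKX2-1 is shown at chr14:36519645-36519738 (minus strand, −182 to −89 from the start site), SLC34A2, a phosphate transporter of type II cells, at chr4:25656363-25656438 (plus strand, −101 to −26), and SFTPA1, surfactant protein A1, at chr10:79610788-79610864 (plus strand, −151 to −75).
NKX2-1: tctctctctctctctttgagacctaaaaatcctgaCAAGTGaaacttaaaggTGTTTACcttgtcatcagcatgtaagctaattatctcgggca
SLC34A2: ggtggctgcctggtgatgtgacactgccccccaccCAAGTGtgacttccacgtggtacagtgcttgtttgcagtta
SFTPA1: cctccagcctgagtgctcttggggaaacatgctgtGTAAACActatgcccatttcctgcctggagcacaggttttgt
The NKX2-1 stretch holds both letters, SLC34A2 the NKX2 core and SFTPA1 the forkhead site. Promoters (250 bases before to 50 after the start) were on hand for 58 of the 86 lineage genes, 95 promoters in all. CAAGTG was found in 22 of these (23.2%), against 11.5% of all 35116 promoters, and TGTTTAC in 5 (5.26%), against 3.42%. Among measured lineage genes with a promoter, the NKX2 core was found in 15 of 41 above background on all arrays and in 3 of the other 14. These count genes with a match in any of their promoters, so the 11.5% per promoter is not their baseline. A link between match and signal was not tested. A match is a description of letters and not evidence of binding.

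Alveolar type II genes covered the whole range of signal, from bright members to members under the limit. Of 16 measured, 12 (75.0%, against 61.6% of all genes) were above background on all 5 arrays. A mean percentile of 90 or more was reached by 5, as by 9.83% of all genes. Besides NAPSA, the bright members were MUC1, a membrane mucin (10.60 ± 0.16), LPCAT1, an acyltransferase that makes surfactant lipid (8.25 ± 0.34), and CTSH, a protease of surfactant processing (8.16 ± 0.20). SFTPA1 read 8.03, 7.83, 7.96, 8.16 and 9.19, with control 5 clear of the others. A second SFTPA1 probe averaged 6.70 and another 1.78, and SFTPA2, its near-identical neighbour, had no named probe here, so the values cannot be assigned to SFTPA1 alone. SLC34A2 averaged 5.85 ± 0.49 and ABCA3, the lipid transporter of lamellar bodies, 4.85 ± 0.36. SFTPD, the collectin surfactant protein D, averaged 3.24 ± 0.28. SFTPC, the most type II-restricted surfactant protein, read 1.58, 1.58, 1.82, 1.59 and 1.59 and was above background on 0 arrays, as was PGC, pepsinogen C. LAMP3, of lamellar bodies, was above background on 4 arrays (2.54 ± 0.41). In the sum over the list the arrays ran from 11.80 to 12.25.

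Club and secretory cell genes were fewer. Of 16 measured, 6 (37.5%) were above background on all 5 arrays, below the 61.6% of all genes. SCGB1A1, the secretoglobin that defines club cells, read 2.94, 2.66, 2.89, 3.22 and 2.18 and was above background on 4 arrays. SCGB3A2, another secretoglobin, was above background on 4 arrays too (2.47 ± 0.24). CYP2F1, a club cell cytochrome P450, and BPIFA1, a secreted airway defence protein, were above background on 0 arrays. The 6 that passed were MUC4 (6.63 ± 0.63), LCN2, an iron-carrier-binding lipocalin (6.52 ± 0.23), the chemokine CXCL17 (6.50 ± 0.18), the protease inhibitor SLPI (5.76 ± 0.21), AGR2, a disulfide isomerase of mucous cells (5.13 ± 0.27), and MUC16 (4.32 ± 0.26).

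Epithelial adhesion genes and keratins were nearly all above background, on every array for 20 of 21 measured (95.2%, against 61.6% of all genes). A percentile of 90 or more was reached by 12, as by 9.83% of all genes. Others lay in the middle of the range, such as the tight junction genes OCLN (3.21, percentile 48.5) and CLDN4 (4.78, percentile 62.5). KRT18 averaged 11.95 ± 0.08 and KRT19 11.66 ± 0.14, both keratins of simple epithelia, and CDH1, E-cadherin, averaged 10.48 ± 0.15 (n = 5 each). The median SD of the 20 was 0.16. ESRP2, a splicing factor of epithelial cells, was the member that did not pass on all arrays, with 3 of 5. Of 10 alveolar type I genes, 6 were above background on every array, a share near the 61.6% of all genes. CAV1 and CAV2, the caveolins, averaged 10.83 ± 0.23 and 8.86 ± 0.14, and GPRC5A, a retinoic acid-induced receptor, 8.59 ± 0.44. The defining type I genes PDPN, podoplanin, and AQP5, a water channel, were above background on 0 arrays, and AGER, the receptor RAGE, on 3.

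**Figure D2:**
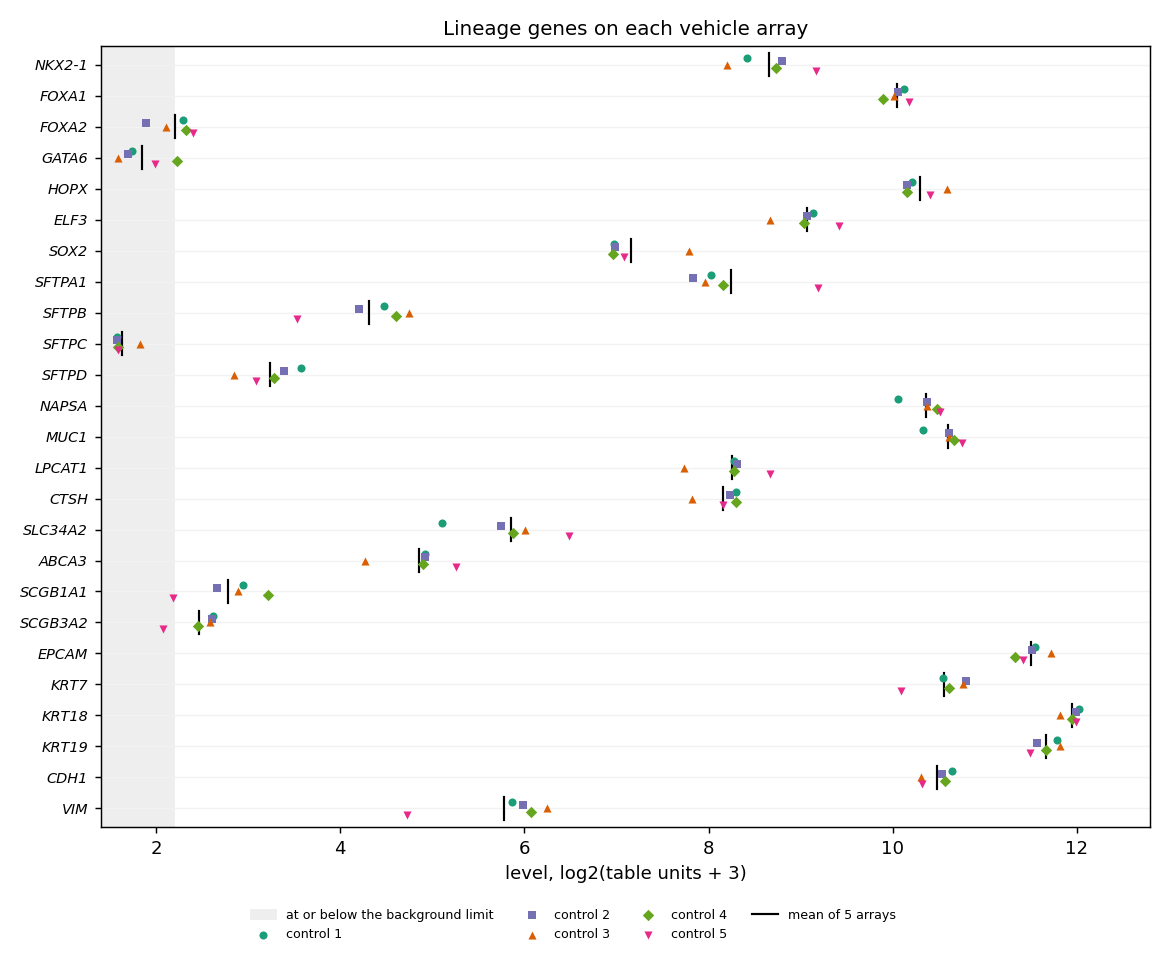
Levels of 25 lineage genes (log2 of table units plus 3, horizontal axis), 1 symbol per vehicle array and black bars for the mean of 5 arrays; grey marks values at or below the background limit before normalization. NKX2-1, FOXA1, NAPSA and the keratins are far to the right on all arrays, while FOXA2, GATA6, SFTPC and SCGB1A1 lie at or near the grey zone.

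Markers of other lineages were mostly at or under the limit. Of 74 measured, 23 (31.1%, against 61.6% of all genes) were above background on all 5 arrays. On none were 30, as were 21.5% of all genes. Of the absence reference 9.68% passed on all 5. Without control 3 the count of 23 was 26. Basal and squamous markers passed for 2 of 9: KRT15 (6.15 ± 0.28) and TRIM29 (4.56 ± 0.14), while KRT5, KRT14, DSG3 and SERPINB13 were above background on 0 arrays. Of 10 neuroendocrine markers, INSM1 (3.66 ± 0.20) and NCAM1 (2.73 ± 0.17) passed, and chromogranin B, synaptophysin, DDC, UCHL1 and SCG2 were on 0 arrays. CHGA, chromogranin A, was above background on 3 arrays (2.25 ± 0.22). Of 13 gastrointestinal and hepatic markers AFP alone passed, at 2.75 ± 0.23. CDX2, an intestinal homeodomain factor, was above background on 4 arrays. The log2 summed level over the arrays ran from 6.25 to 6.77 for the basal and squamous list, from 4.29 to 4.60 for the neuroendocrine list and from 3.66 to 4.63 for the gastrointestinal and hepatic list.

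Mesenchymal markers passed for 8 of 18 (44.4%, against 61.6% of all genes). VIM, vimentin, read 5.87, 5.98, 6.25, 6.07 and 4.72, with control 5 the lowest. LUM, the proteoglycan lumican, averaged 7.30 ± 0.42, COL1A1, a fibrillar collagen chain, 6.28 ± 0.27, and ACTA2, smooth muscle actin, 4.66 ± 0.34. The epithelial-mesenchymal factors went different ways, with TWIST1 (4.63 ± 0.32) and SNAI2 (4.54 ± 0.53) above background and ZEB1, ZEB2 and SNAI1 on 0 arrays. COL1A2, COL3A1, THY1 and FAP were on 0 arrays too. Of 14 leukocyte markers 5 (35.7%) passed. They were CD68, a lysosomal membrane protein (8.42 ± 0.28), LYZ, CD79A (3.63), CD14 (2.88) and MS4A1 (2.80, with 1 of 3 probes). LYZ, lysozyme, was at 2.94 on control 3 and 4.39 to 4.77 on the others. PTPRC, the pan-leukocyte CD45, was above background on 3 arrays (2.22 ± 0.30), and CD2 and TYROBP on 0. Of 10 endothelial markers 5 (50.0%, near the 61.6% of all genes) passed. They were KDR, a VEGF receptor (4.77 ± 0.35), TEK (4.47), TIE1 (3.59), PECAM1 (3.52) and ESAM (3.07). CDH5 and CLDN5 were on 0. The log2 summed levels over the arrays ran from 8.02 to 8.81 for the mesenchymal list, from 8.38 to 8.98 for the leukocyte list and from 5.94 to 6.47 for the endothelial list. Their part in any value here was not tested.

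Growth factor receptors were above background about as often as all genes, with 12 of 21 measured receptor tyrosine kinases (57.1%, against 61.6%) on every array. MET, the receptor of hepatocyte growth factor, read 9.46, 9.45, 10.34, 9.31 and 9.45, so that control 3 was higher than the others; its mean was 9.60 with and 9.42 without it. ERBB3, the kinase-poor partner of ERBB2, went the other way, with 8.52, 8.71, 6.77, 8.64 and 8.88 and a mean of 8.30 with and 8.69 without control 3. ERBB2 read 8.26, 8.32, 7.57, 8.55 and 8.59 with 1 of 3 probes above background on all arrays. EGFR, the epidermal growth factor receptor, averaged 5.90 ± 0.25 with the brightest of its 4 probes, of which 2 passed. DDR1, a collagen receptor, averaged 7.82 ± 0.26. ERBB4, another ERBB receptor, averaged 2.83 and was above background on 4 arrays. FGFR1 and ROS1 were above background on 0 arrays, ALK on 4 and RET on 2.

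Of 16 measured ligands, 11 (68.8%, near the 61.6% of all genes) were above background on all arrays. The EGFR ligand TGFA averaged 7.51 ± 0.15, and betacellulin (BTC), HBEGF and epiregulin (EREG) averaged 5.73 ± 0.29, 5.49 ± 0.06 and 5.17 ± 0.63. VEGFA, the vascular growth factor, read 7.60, 7.58, 5.13, 7.65 and 7.24, with a mean of 7.04 ± 1.08 that was 7.52 without control 3. HGF, the MET ligand, averaged 3.04 ± 0.13. IGF2 was above background on 0 arrays.

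Most members of the RAS cascade were expressed. Of 23 measured, 20 (87.0%, against 61.6% of all genes) were above background on every array. RALB, a RAS-like GTPase, averaged 9.60 ± 0.26, the adaptor SHC1 8.72 ± 0.22, and the exchange factor RALGDS 8.37 ± 0.40. MAPK3, the kinase ERK1, averaged 8.19 ± 0.20, and the MEK genes MAP2K1 and MAP2K2 averaged 7.98 ± 0.11 and 7.47 ± 0.20. PTPN11, the phosphatase SHP2 that RAS activation needs downstream of receptors, averaged 8.23 ± 0.20. HRAS averaged 6.35 ± 0.17, and NF1, a GTPase activator that turns RAS off, 4.30 ± 0.21. MRAS was above background on 0 arrays.

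Genes of ERK output were above background without exception, 23 of 23 measured, against 61.6% of all genes. Their median percentile was 86.0, against 49.6 over all genes. CCND1, cyclin D1, read 10.74, 10.68, 10.42, 10.68 and 10.48, at the 98.9th percentile. DUSP6, the phosphatase that ERK induces against itself, read 8.87, 8.74, 10.17, 8.83 and 8.73. Control 3 was above the other arrays for DUSP6, and the mean of 9.07 was 8.79 without it. PHLDA1 averaged 9.75 ± 0.25 and the oncogene MYC 8.72 ± 0.27. The ETS factors ETV5 and ETV4 averaged 7.50 ± 0.28 and 5.32 ± 0.47, and FOSL1, an AP-1 subunit, 6.93 ± 0.28. Of the feedback inhibitors, SPRED1 averaged 8.36 ± 0.27, SPRED2 8.32 ± 0.20, and SPRY1, SPRY2 and SPRY4 averaged 6.78 ± 0.25, 6.37 ± 0.23 and 5.17 ± 0.19. DUSP4 averaged 2.94 ± 0.39 and was the sole member not over a value of 0.5 on all arrays. Relative to each gene's mean, the list was at 0.16 on control 3 and −0.19 on control 5, with the other arrays between −0.03 and 0.05.

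**Figure D3:**
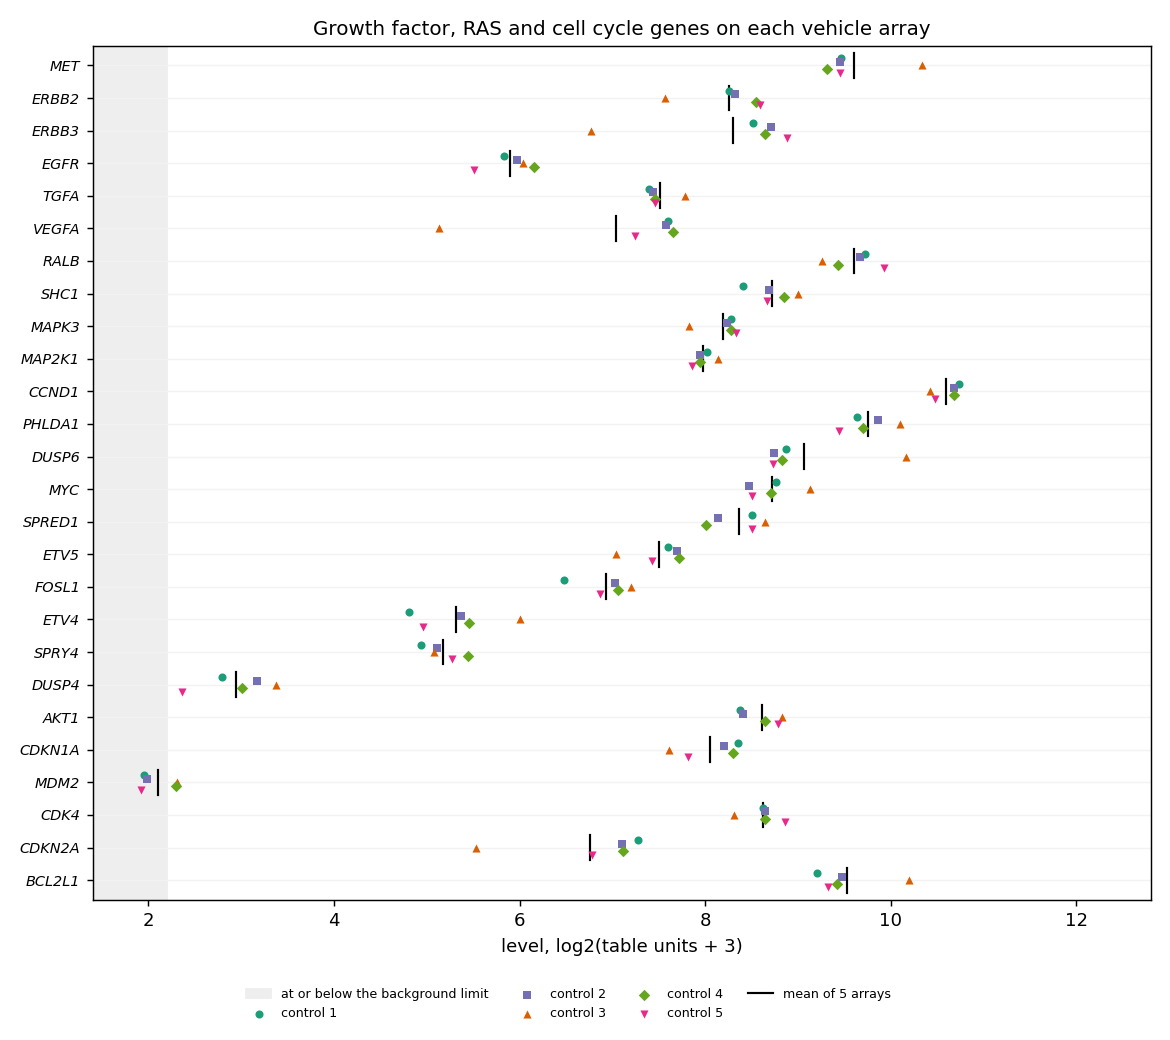
Levels of 26 growth factor, RAS, cell cycle and survival genes (log2 of table units plus 3, horizontal axis), 1 symbol per vehicle array and black bars for the mean of 5 arrays; grey marks values at or below the background limit before normalization. Control 3 is higher for MET, DUSP6 and BCL2L1 and lower for ERBB3, VEGFA and CDKN2A, while CCND1 varies little.

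The PI3K branch was measured for 20 genes, of which 17 (85.0%, against 61.6% of all genes) were above background on every array. RHEB, the GTPase that turns on mTOR, averaged 9.82 ± 0.09, the kinase AKT1 8.61 ± 0.21 and the factor FOXO3 8.21 ± 0.37. STK11, the tumour suppressor kinase LKB1, averaged 3.50 ± 0.35. TSC2, a brake on RHEB, sat at the lowest value of each array with its single probe.

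Tumour suppressor and cell cycle genes followed. Of 17 genes of growth arrest and damage response, 13 (76.5%, against 61.6% of all genes) passed. CDKN1A, the inhibitor p21, read 8.35, 8.20, 7.61, 8.30 and 7.81. ZMAT3, an RNA-binding zinc finger protein, averaged 8.82 ± 0.48 and TP53I3, a quinone oxidoreductase, 8.69 ± 0.50. MDM2, a ubiquitin ligase, was above background on 2 arrays (2.10 ± 0.19). Of 21 genes of RB and cell cycle control 20 (95.2%) passed, with TOP2A, the topoisomerase of cycling cells, at 9.13 ± 0.22, CDK4 at 8.62 ± 0.20 and RB1 at 4.38 ± 0.31. CDKN2A, which encodes p16 and ARF, was present on every array, at 7.28, 7.10, 5.53, 7.12 and 6.78, with a mean of 6.76 that was 7.07 without control 3. All 3 CDKN2A probes were above background.

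In the list of MYC and transcription genes 14 of 16 (87.5%, against 61.6% of all genes) passed. Among them were SMARCA4, the chromatin remodelling ATPase (8.98 ± 0.32), and YAP1, the Hippo coactivator (8.93 ± 0.31), with its target CCN1 at 9.52 ± 0.39. MYCN was above background on 4 arrays. Of the BCL2 family 13 of 16 (81.2%) passed. The survival proteins BCL2L1 and MCL1 averaged 9.53 ± 0.39 and 8.30 ± 0.16, and the BH3-only gene PMAIP1 8.40 ± 0.16. BCL2 itself was above background on 4 arrays (2.27 ± 0.06), and HRK on 0. Over all 167 measured oncogene pathway genes, 138 (82.6%) were above background on every array, and 141 without control 3.

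The NRF2 system was expressed at baseline. NFE2L2 read 8.56, 8.50, 9.35, 8.48 and 8.49, with a mean of 8.68 that was 8.51 without control 3. KEAP1, its repressor, averaged 6.66 ± 0.21 and was above background with 2 of 3 probes. SQSTM1, the cargo receptor p62 that competes for KEAP1, read 9.65, 9.46, 8.57, 9.45 and 9.52. For NFE2L2 control 3 was the high array and for SQSTM1 the low one. CUL3, the ligase scaffold that works with KEAP1, was at the lowest value of each array with its single probe, and BACH1, a repressor of the same sites, was above background on 1 array. MAFF and MAFG, the small partners of NRF2 on DNA, averaged 5.66 ± 0.21 and 5.03 ± 0.15.

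Enzymes that NRF2 controls were spread over the whole range. Of 21 measured, 17 (81.0%, against 61.6% of all genes) were above background on every array, with a median percentile of 77.0. NQO1, the quinone reductase, read 9.93, 9.69, 9.50, 9.64 and 10.28, and TXNRD1, thioredoxin reductase, read 9.72, 9.46, 9.52, 9.86 and 10.38. Both were at or above the 97.0th percentile on each array and highest on control 5. TKT, transketolase, averaged 10.40 ± 0.21, and the ferritin light chain FTL 11.51 ± 0.08. GCLM and GCLC, the subunits of the rate-limiting enzyme of glutathione synthesis, averaged 7.30 ± 0.24 and 6.67 ± 0.19. HMOX1, heme oxygenase, averaged 6.03 ± 0.32, SRXN1, sulfiredoxin, 5.04 ± 0.12, and SLC7A11, the cystine carrier, 3.89 ± 0.10 (n = 5 each).

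The aldo-keto reductases were uneven, and the AKR1C sequences are so close that a probe may bind several members. AKR7A2 was the brightest of those measured here, at 9.25 ± 0.25, and was above background on all arrays. AKR1A1 and AKR1B1 had no named probe here. AKR1C3 averaged 6.94 ± 0.25. AKR1B10 read 2.27, 2.19, 2.25, 2.26 and 2.62 and was above background on 4 arrays. AKR1C2 averaged 2.81 ± 0.25 with the brightest of 5 probes. The other 4 AKR1C2 probes averaged 1.59 to 1.83 and were above background on 0 arrays, so AKR1C2 rests on a single probe. AKR1C1 was at the lowest value throughout.

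Promoters of GCLM and TXNRD1 are shown because their genes are measured here and hold the core of the antioxidant response element, TGACNNNGC, which NRF2 reads. Capitals mark a match on either strand. TXNRD1 is shown at chr12:104215645-104215723 (plus strand, −134 to −56) and GCLM at chr1:93909431-93909499 (minus strand, −69 to −1), from RefSeq on GRCh38.p14.
TXNRD1: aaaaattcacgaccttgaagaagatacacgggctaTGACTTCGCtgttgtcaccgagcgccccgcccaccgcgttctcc
GCLM: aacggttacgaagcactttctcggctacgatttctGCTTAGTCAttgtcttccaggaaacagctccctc
Of the 24 promoters on hand for 18 of 26 listed genes, 7 (29.2%) held the core, in GCLM, TXNRD1, ME1, PGD, EPHX1 and UGT1A6, against 13.3% of all promoters. The first 5 of these genes were above background on every array and UGT1A6 on 0. Among measured listed genes with a promoter, the core was found in 5 of 14 above background on all arrays and in 1 of the other 3. These again count genes, so the 13.3% per promoter is not their baseline. The window ends close to the start site, so it says nothing of more distant elements.

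**Figure D4:**
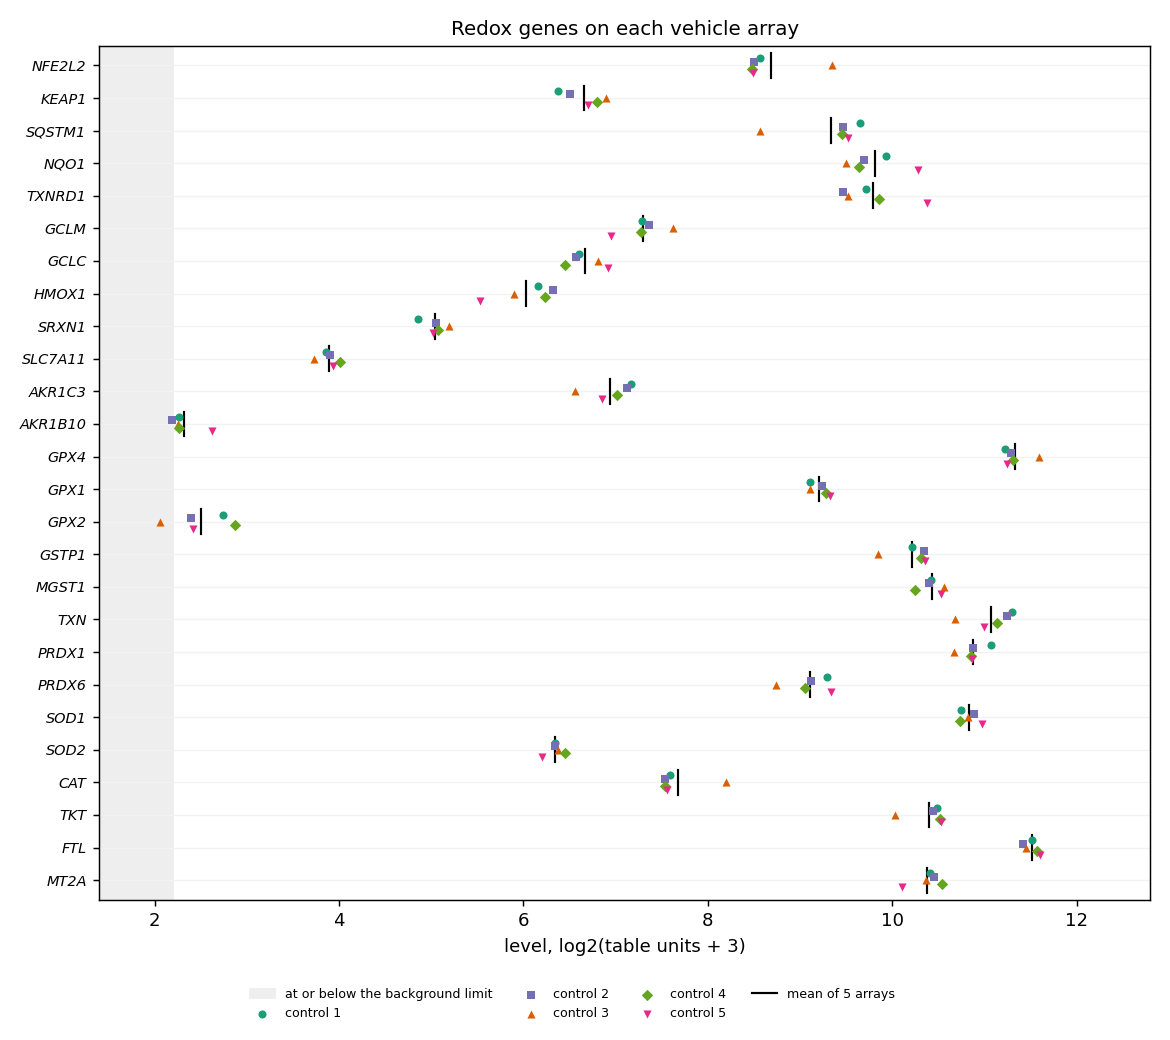
Levels of 26 redox genes (log2 of table units plus 3, horizontal axis), 1 symbol per vehicle array and black bars for the mean of 5 arrays; grey marks values at or below the background limit before normalization. TXN, PRDX1, GPX4, SOD1 and FTL lie near 11 on all arrays, AKR1B10 and GPX2 near the grey zone.

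Glutathione genes were broadly present, 28 of 33 (84.8%, against 61.6% of all genes) on every array. GPX4, the peroxidase that reduces lipid hydroperoxides, averaged 11.33 ± 0.15, and GPX1, the cytosolic peroxidase, 9.21 ± 0.10. GPX2, the epithelial peroxidase, read 2.74, 2.40, 2.06, 2.87 and 2.42 and was above background on 4 arrays. The transferases MGST1 and GSTP1, which join glutathione to electrophiles, averaged 10.43 ± 0.12 and 10.21 ± 0.21. GSTM1, which many people lack as a gene, was above background at 7.82 ± 0.23, and GSTM2 at 7.87 ± 0.18, with probes that may bind both transcripts. A second GSTM2 probe averaged 1.59 and was above background on 0 arrays, so GSTM2 rests on a single probe. GSR, glutathione reductase, averaged 5.94 ± 0.20 and GSS, glutathione synthetase, 6.54 ± 0.15. GGT1, GPX7 and GSTM3 were above background on 0 arrays.

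Thioredoxin and peroxiredoxin genes had a median percentile of 95.1. Of 17 measured, 16 (94.1%, against 61.6% of all genes) passed. A percentile of 90 or more was reached by 11, as by 9.83% of all genes. TXN, thioredoxin, read 11.30, 11.24, 10.68, 11.14 and 10.99. PRDX1, a cytosolic peroxide reductase, read 11.07, 10.88, 10.67, 10.85 and 10.86. Control 3 was the lowest array for both, and over the 16 genes it lay 0.21 below the gene means, against 0.01 to 0.09 above on the others. TXNDC17, a thioredoxin-like protein, averaged 11.26 ± 0.15, and TXNIP, the inhibitor of thioredoxin, 9.67 ± 0.23. Of the mitochondrial members, TXN2 was at 3.00 ± 0.31 and TXNRD2 on 0 arrays, and PRDX3, the mitochondrial peroxiredoxin, averaged 9.11 ± 0.13.

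Genes that make or remove superoxide and peroxide divided. SOD1, the cytosolic dismutase, averaged 10.83 ± 0.10 and SOD2, the mitochondrial one, 6.34 ± 0.09. CAT, catalase, read 7.59, 7.53, 8.20, 7.53 and 7.56, with control 3 above the rest and a mean of 7.68 that was 7.55 without it. Oxidase subunits were mostly near the limit. CYBA, the shared membrane subunit, averaged 9.81 ± 0.17, but CYBB, NOX1, NOX4 and DUOX1 were each above background on 1 to 3 arrays and NCF1, DUOX2 and DUOXA2 on 0. Of the regulators of NOX1, NOXA1 averaged 4.50 ± 0.38 and NOXO1 4.00 ± 0.20. NOX5, a calcium-regulated oxidase, passed on all arrays at 2.61. Of the 20 genes 11 (55.0%, near the 61.6% of all genes) passed.

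NADPH supply genes passed for 14 of 17 (82.4%, against 61.6% of all genes). IDH1, the cytosolic isocitrate dehydrogenase, was at 9.50 ± 0.26, TALDO1, transaldolase, at 9.38 ± 0.12, and PGD, of the oxidative pentose phosphate steps, at 8.04 ± 0.14. NNT, the mitochondrial transhydrogenase, was on 0 arrays. Iron and heme genes passed for 17 of 18 (94.4%). Among them were the transferrin receptor TFRC (10.56 ± 0.13), ACO1, the iron-responsive aconitase (9.75 ± 0.20), the ferritin autophagy receptor NCOA4 (9.61 ± 0.23) and BLVRB, a biliverdin reductase (7.90 ± 0.29). HAMP, hepcidin, was on 0. Metallothioneins, the metal-binding thiol proteins, included MT2A at 10.38 ± 0.16, MT1X at 8.25 ± 0.35, MT1E at 8.22 ± 0.29 and MT1F at 7.28 ± 0.41, with MT1M and MT3 on 0. Their probes may bind one another's transcripts. Aldehyde and carbonyl enzymes passed for 16 of 17 (94.1%). GLO1, which clears methylglyoxal, averaged 9.89 ± 0.20, PARK7, a redox-sensitive chaperone, 9.72 ± 0.19, and ALDH3A1 was on 0. Over all 153 measured redox genes 125 (81.7%) were above background on every array, and 127 without control 3.

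Spread between the arrays was not even over genes. Of the 11501 genes, 603 (5.24%) had an SD over 0.5, against 11 of 138 oncogene pathway genes, 6 of 57 lineage genes and 1 of 125 redox genes. The genes with the largest SD were COXFA4L3, ZNF679, CCAR1, VEGFA, MMP9, ZNF681, SNX15, TMEM70, GNLY and IRF1. Control 3 was the distant array for most of these. CCAR1, a cell cycle and apoptosis regulator, was at 7.21 on control 3 and 4.63 to 4.95 elsewhere, and its SD of 1.09 was 0.13 without that array. IRF1, an interferon response factor, was at 3.79 and 5.81 to 6.08. Control 5 held others: MMP9, a matrix protease, was at 4.06 against 6.15 to 6.59, and GNLY at 2.50 against 4.54 to 4.80.

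Without control 3 the widest spread came from COXFA4L3 (SD 1.24), MMP9 (1.21), GNLY (1.13) and S100A1 (1.06). ID1 and ID3, inhibitors of helix-loop-helix factors, were high on control 5, at 8.88 for ID1 against 6.54 to 7.24 and at 6.34 for ID3 against 3.90 to 4.58. PMEPA1, a target of TGF-beta signalling, was low there, at 7.32 against 8.52 to 9.11, and so was the integrin ITGA2, at 7.11 against 8.63 to 8.94.

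**Figure D5:**
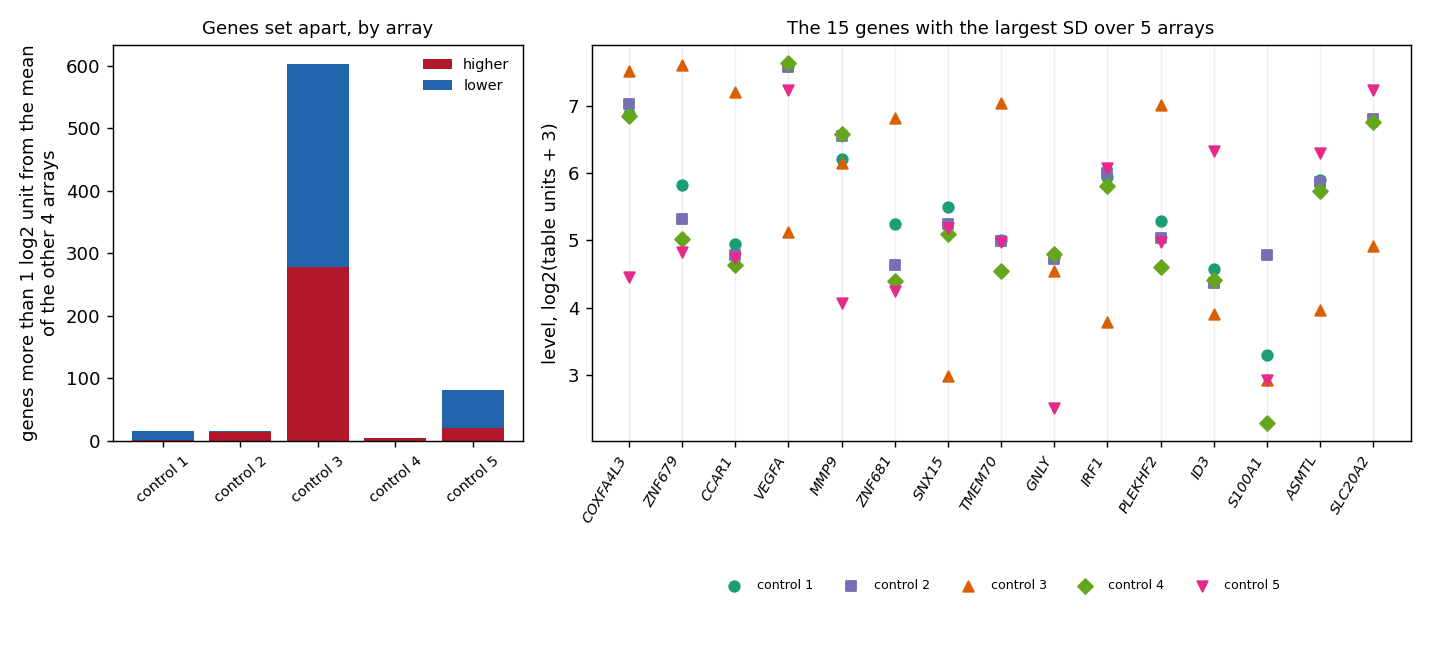
Left, the number of genes more than 1 log2 unit from the mean of the other 4 arrays, by vehicle array, as bars divided into higher and lower genes; right, levels (log2 of table units plus 3) of the 15 genes with the largest SD, 1 symbol per array. Control 3 has 604 such genes and control 5 has 81, and the symbol far from the rest belongs to control 3 or control 5 for most of the 15 genes.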

How the data were processed

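Total RNA was hybridised to Illumina HumanWG-6 v3.0 bead arrays, per the labels' protocols. Values for 48803 probes were deposited by the authors on a scale that is read here as log10, with a maximum of 3.65 to 3.73 per array (4485 to 5409 table units); neither the base nor the software, background correction or scaling is stated in the sources used here. A second deposited table was not used, because its 10 columns match no sample.

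Control values were turned to linear units, 3 was added, and quantile normalization followed on the log2 scale. Percentiles and calls of background used the deposited values. The platform annotation gave 27578 probes 1 symbol (27541 matched by identifier) and 13 several; 21212 unlisted probes stay unnamed. The brightest probe stood for each of 18665 genes. Of 5913 genes with several probes, 1209 (20.4%) had both a probe above background on all arrays and one on none. Among them were SOD2, RALGDS, VEGFA, DDR1, FOXO3, MGST1, MUC4, SPRY1, SPRY4 and HLA-C, given above by their brightest probe.

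With 1 group there was no test. The number of arrays limits the precision. Members, the 35 lists (681 genes, 621 measured) and the panel were chosen with earlier results of these data known. Named were a fixed panel (50 of 56 measured), the 10 genes of highest mean, the 10 of largest SD and the 4 brightest of each list, 172 genes; others were named after their values were seen. Spread, rank and gap calculations were tested on simulated data. Alternatives covered the limit, offset, normalization, probe rule and each array left out. Python 3.11.15, numpy 2.4.6 and pandas 2.3.3 were used.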

Additional observations from a re-analysis of the deposited data

Results flagged for a closer look

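A level was taken as far from the others where the distance from 1 array to the closest other array, as a part of the whole range, exceeded 0.71, Dixon's 95% critical value for 5 samples. This held for 37 of the 158 named genes above background on all arrays (23.4%), against 14.3% of all such genes, where chance gives about 5%. The named genes include the 10 with the largest SD, so their share is not independent of the spread. Control 3 was the distant array in 27 cases and control 5 in 10.

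On control 3 the levels were high for CCAR1 (7.21), TMEM70 (7.05), DUSP6 (10.17), MET (10.34), BCL2L1 (10.20), NFE2L2 (9.35), CAT (8.20), CAV1 (11.23), PTPN11 (8.58), GPX4 (11.59), TGFA (7.78) and TPT1 (12.26). They were low there for VEGFA (5.13), SNX15 (2.98), IRF1 (3.79), ERBB3 (6.77), LYZ (2.94), CDKN2A (5.53), SQSTM1 (8.57), RALGDS (7.66), SMARCA4 (8.41), FOXO3 (7.58), CXCL16 (5.95), AKR7A2 (8.81), ZP3 (6.19), TKT (10.03) and PARK7 (9.38).

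On control 5 the levels were high for SFTPA1 (9.19), IDH1 (9.96) and ACTG1 (12.33). They were low there for COXFA4L3 (4.45), MMP9 (4.06), GNLY (2.50), VIM (4.72), TP53I3 (7.81), INPP4B (6.55) and CCN1 (8.85). The part of culture, RNA or array in these differences was not tested.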

How the results depend on the processing

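The counts of genes, lineage, oncogene pathway and redox genes above background stayed within 1.5 times their reported values under the other limits, array counts and probe rules tried and with each array left out: 8204 to 12953 of all genes, 48 to 68 lineage, 104 to 152 oncogene pathway and 105 to 129 redox genes. Other-lineage genes numbered 23, and 10 with a limit of 1.0. The absence reference count of 6 depended on the limit: it was 10 with a limit of 0, 2 with 0.5, 1 with 1.0, 1 with the 95th percentile of those genes (0.53 to 0.73 by array) and 15 where 3 of 5 arrays sufficed. With 1 array left out it ran from 6 to 10, the 10 without control 3. Over all probes, named or not, 20006 (41.0%) were above background, an alternative added after the data were seen. The median SD of 0.23 was 0.15 to 0.26 under the alternatives, 0.16 without control 3.

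Of 172 named levels, 75 moved by over 1 SD when probes were averaged, 41 with an offset of 16, 26 with an offset of 1 and 0 under median scaling or without normalization. Of 172 percentiles, 149 moved by over 1 SD when ranked among all probes and 150 when the probe with the lowest mean stood for each gene. No paired analysis was possible because only vehicle arrays were described and no groups were compared.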

Other observations

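Metabolic and housekeeping lists were bright. All 19 measured glycolysis genes were above background on every array, against 61.6% of all genes (median percentile 96.5, against 49.6). ENO1, enolase, was at 12.03 ± 0.11, GAPDH at 11.92 ± 0.12 and LDHA, lactate dehydrogenase A, at 11.35 ± 0.35. SLC2A1, the glucose carrier GLUT1, averaged 9.95 ± 0.38. Of 26 ribosomal protein genes 25 passed, with a median SD of 0.09, while RPL10 passed on 1 array.

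Antigen presentation genes passed for 13 of 17 (76.5%, against 61.6% of all genes). B2M, the light chain of class I molecules, averaged 10.54 ± 0.07, HLA-B 6.89 ± 0.17 and HLA-C 5.35 ± 0.15, on probes that can miss or share alleles. The class II regulator CIITA was above background on 1 array and HLA-DRA on 3. CD274, the checkpoint ligand PD-L1, averaged 3.52 ± 0.09. Of 21 cytokines and chemokines 12 (57.1%, near the 61.6% of all genes) passed. IL18 averaged 10.36 ± 0.28 and CXCL8, which attracts neutrophils, 8.73 ± 0.45, while TNF, IL1A, IL1B, IL33, CCL2 and CSF1 were above background on 0 arrays.

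Some of the brightest probes carry names that are unusual for a lung line. Among the 25 genes of highest mean were AMY1C, a salivary amylase (12.09 ± 0.05, 1 probe), LAIR1, a leukocyte receptor (11.98 ± 0.16, 1 probe), and CLUAP1, a ciliary protein (12.02 ± 0.08, 5 probes, of which the dimmest averaged 3.82). Which transcripts these probes bound was not tested.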
